A study of Rattus norvegicus with 16 samples.

Results

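Fos, Jun, Junb, Atf3, Egr1, Klf6, Ier2, Zfp36, Btg2 and Ccn1 are 10 immediate-early genes among the 22663 genes measured in rat ovary after 4-vinylcyclohexene diepoxide (VCD). They were chosen by symbol, with the values of the VCD and control input libraries already known, for their higher mean and wide spread in VCD. Their RNA levels, fold changes and spread are therefore given below as a description. Counts of calls among them stand only beside the share of all genes, and nothing is read from them. All 10 passed the filter on low values, a mean of at least 0.5 FPKM (fragments scaled to transcript length and library size) over the 8 input libraries.

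Immediate-early genes are transcribed within minutes of a stimulus, from promoters that hold factors already present in the cell, and their mRNAs are short-lived. Growth factors, hormones, stress, and the cutting and warming of tissue can all set them off through MAP kinase, calcium and cyclic AMP signalling. In the ovary the luteinizing hormone surge is a known trigger, acting on the steroid-making cells around the oocyte. Many of their mRNAs carry N6-methyladenosine (m6A), a methyl mark on adenosine that YTH-domain proteins bind and that is linked to mRNA decay.

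Ovaries came from 8 rats, 4 labelled CON and 4 labelled VCD. VCD is an industrial epoxide that depletes primordial and primary follicles in rodents. From each rat came an input library of fragmented poly(A) RNA and a library of the fragments bound by an m6A antibody (IP), 16 libraries in all, and each library is named here by its group and rat number. The titles number the rats, so libraries were taken as separate animals. A batch label gives CON and VCD libraries of the same number the same batch, without saying what a batch is. The labels used here give no dose, route, strain, age, estrous stage or dissection time, so hormonal state and the interval before freezing were not known for any library. The labels name the organism as Rattus norvegicus, whereas the series text speaks of mice.

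Read depth is unknown, because FPKM keeps no read totals. Summed FPKM lay between 403809 and 421628. The oocyte genes Gdf9, an oocyte growth factor, and Zp3, a coat protein of the egg, were present in CON and fell in VCD by 1.73 ± 0.17 (SE) and by 2.02 ± 0.20 (SE) on the log2(FPKM + 1) scale (limma, Benjamini-Hochberg adjusted p = 0.00493 for each, n = 4 per group). In bulk RNA, fewer cells of a type and less RNA per cell cannot be told apart. Gdf9 was 1.44, 1.14, 1.24 and 1.05 FPKM in VCD 1 to 4 and at least 4.62 in every CON library. By this marker the 4 VCD libraries stood together. Zp3 varied more, at 1.56, 0.742, 1.04 and 0.378 FPKM in VCD 1 to 4, each below the lowest CON value of 5.14.

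The upstream DNA of these genes is shown first. Serum response factor, which binds the CArG box, and CREB, which binds the cyclic AMP response element, are among the factors that start their transcription. RefSeq promoters (build GRCr8) were held in the table used for 7 of the 10, Junb, Egr1, Klf6, Ier2, Zfp36, Btg2 and Ccn1, and not for Fos, Jun and Atf3. In the 250 bases before the start site, both strands were searched for the CArG box (the serum response factor motif), the cyclic AMP response element TGACGTCA and the AP-1 site TGACTCA or TGAGTCA. The 2 spellings of the AP-1 site are the same letters read on opposite strands, and in the windows of these 7 genes no match overlapped another. A CArG box was found in 3 of the 7 windows (Egr1, Klf6, Zfp36) and in 1.50% of 33469 promoters. The cyclic AMP element, counted only in the exact spelling TGACGTCA, was found in 2 of 7 (Btg2, Ier2) and in 1.59% of all promoters. Spellings that differ by a base were not searched, and a window without a match can hold them, as Egr1 does with tcacgtca. The AP-1 site was found in 0 of 7 and in 4.05% of all. Counted from the start site, the CArG matches lay at -105 to -96 and -83 to -74 in Egr1 and at -201 to -192 in Klf6. The Zfp36 match lay close to the start, at -32 to -23. A match describes the letters in these windows and is not a measured binding site. The matches are printed on the strand of the gene with the motif in capitals.
Egr1 distal CArG box, chr18:26736963-26736992 (+): gtcggtccttCCATATTAGGgcttcctgct
Egr1 proximal CArG box, chr18:26736985-26737014 (+): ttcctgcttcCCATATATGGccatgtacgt
Klf6 CArG box, chr17:69458660-69458689 (-): aataggaaggCCTTTAATGGagaggctcgg
Zfp36 CArG box, chr1:92799121-92799150 (-): ccgggccgccCCATAAAAGGcgaaagctcc
Btg2 cyclic AMP element, chr13:48087874-48087901 (-): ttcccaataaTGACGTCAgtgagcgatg
Ier2 cyclic AMP element, chr19:40399297-40399324 (+): ggcgtttcagTGACGTCActcttactct

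Egr1 had the highest mean level of the 10 in both groups and was the only one of the 7 windows with 2 CArG boxes, so its 250 upstream bases are given whole (chr18:26736828-26737077, + strand, GRCr8), with both boxes in capitals.
Egr1 upstream: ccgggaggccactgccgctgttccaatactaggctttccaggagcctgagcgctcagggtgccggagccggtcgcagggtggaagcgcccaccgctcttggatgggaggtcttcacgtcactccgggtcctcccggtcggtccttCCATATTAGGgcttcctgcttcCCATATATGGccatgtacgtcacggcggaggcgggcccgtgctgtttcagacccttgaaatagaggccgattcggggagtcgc

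The AP-1 factors come first. Fos, which joins a JUN protein to form the AP-1 dimer, was 30.2, 31.0, 47.9 and 19.3 FPKM in CON 1 to 4 and 121.0, 41.9, 11.7 and 160.9 FPKM in VCD 1 to 4. VCD 1 and VCD 4 were above every other library, VCD 2 lay inside the CON range and VCD 3 was the lowest of all 8. The means were 32.1 ± 11.8 in CON and 83.9 ± 69.0 in VCD (SD, n = 4 each), and the difference on the log2(FPKM + 1) scale was 0.86 ± 0.71 (SE). Within VCD the highest Fos level was 13.7 times the lowest, against 2.49 times within CON.

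Jun, the DNA-binding partner of Fos, was 54.6, 47.9, 58.5 and 50.8 FPKM in CON and 90.1, 51.7, 75.9 and 88.9 FPKM in VCD. Here VCD 2, and not VCD 3, was the low VCD library, and it was the only one within the CON range. The log2 difference was 0.50 ± 0.17 (SE), from a mean of 52.9 ± 4.60 to 76.6 ± 17.9 FPKM (SD, n = 4 each). Junb, a JUN relative that can restrain proliferation, was 47.0, 47.0, 44.2 and 31.0 FPKM in CON and 122.0, 57.6, 32.5 and 138.1 FPKM in VCD. Its order of VCD libraries was that of Fos, with VCD 4 highest and VCD 3 within the CON range. The log2 difference of Junb was 0.83 ± 0.41 (SE).

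Atf3, a stress-induced repressor of the ATF family that also pairs with JUN proteins, was among the lowest of the 10, at 4.69, 1.89, 2.22 and 1.20 FPKM in CON and 4.11, 4.02, 2.66 and 4.54 FPKM in VCD. Its highest library was CON 1, a control. Its log2 difference was 0.54 ± 0.27 (SE), and it varied more within CON than within VCD, with an SD of 0.58 against 0.26 on the log2 scale.

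Of the zinc-finger factors, Egr1 was 129.9, 42.3, 77.7 and 26.6 FPKM in CON and 224.0, 76.4, 51.1 and 198.4 FPKM in VCD. EGR1 is a target of ERK signalling that takes part in the ovulatory response. VCD 1 and VCD 4 were again highest, but CON 1 exceeded VCD 2 and VCD 3, and the CON libraries spread almost as widely as the VCD libraries (SD 0.98 and 1.03 on the log2 scale). The log2 difference was 0.97 ± 0.58 (SE). Klf6, a Krüppel-like factor, was nearly flat at 5.34, 4.52, 5.65 and 3.68 FPKM in CON and 6.02, 5.09, 5.64 and 5.42 FPKM in VCD. Only VCD 1 lay above the CON range of Klf6, and its log2 difference of 0.19 ± 0.12 (SE) was the smallest of the 10.

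Ier2, a short nuclear protein of the early response, was 43.5, 27.6, 35.7 and 26.4 FPKM in CON and 71.1, 36.9, 26.8 and 101.8 FPKM in VCD. VCD 4 and VCD 1 were above the CON range and VCD 2 and VCD 3 within it (log2 difference 0.65 ± 0.37 SE). The deposited tables type this locus as a pseudogene.

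Zfp36 and Btg2 act on mRNA decay. Zfp36 encodes tristetraprolin, which binds AU-rich elements and brings in deadenylases, and was 45.1, 45.4, 54.8 and 40.4 FPKM in CON and 84.0, 61.1, 47.4 and 97.6 FPKM in VCD. VCD 1, 2 and 4 lay above all CON libraries and VCD 3 among them, with a log2 difference of 0.59 ± 0.21 (SE). Btg2, an antiproliferative partner of the CCR4-NOT deadenylase, was 19.0, 20.7, 17.5 and 15.3 FPKM in CON and 84.6, 32.1, 13.3 and 91.8 FPKM in VCD. The Btg2 controls were close together and its VCD libraries were not, so that the VCD spread was 7.26 times the CON spread on the log2 scale, the highest ratio of the 10. VCD 3 was below every control for Btg2, as it was for Fos.

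Ccn1, a secreted matrix protein that binds integrins and marks YAP and serum response activity, was 11.1, 15.0, 23.8 and 16.7 FPKM in CON and 105.6, 50.8, 27.8 and 76.2 FPKM in VCD. It was the only one of the 10 whose groups did not overlap, although VCD 3, at 27.8, stood just above CON 3, at 23.8. Its log2 difference, 1.79 ± 0.37 (SE), was the largest of the 10, with means of 16.6 ± 5.29 and 65.1 ± 33.4 FPKM (SD, n = 4 each).

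**Figure D1:**
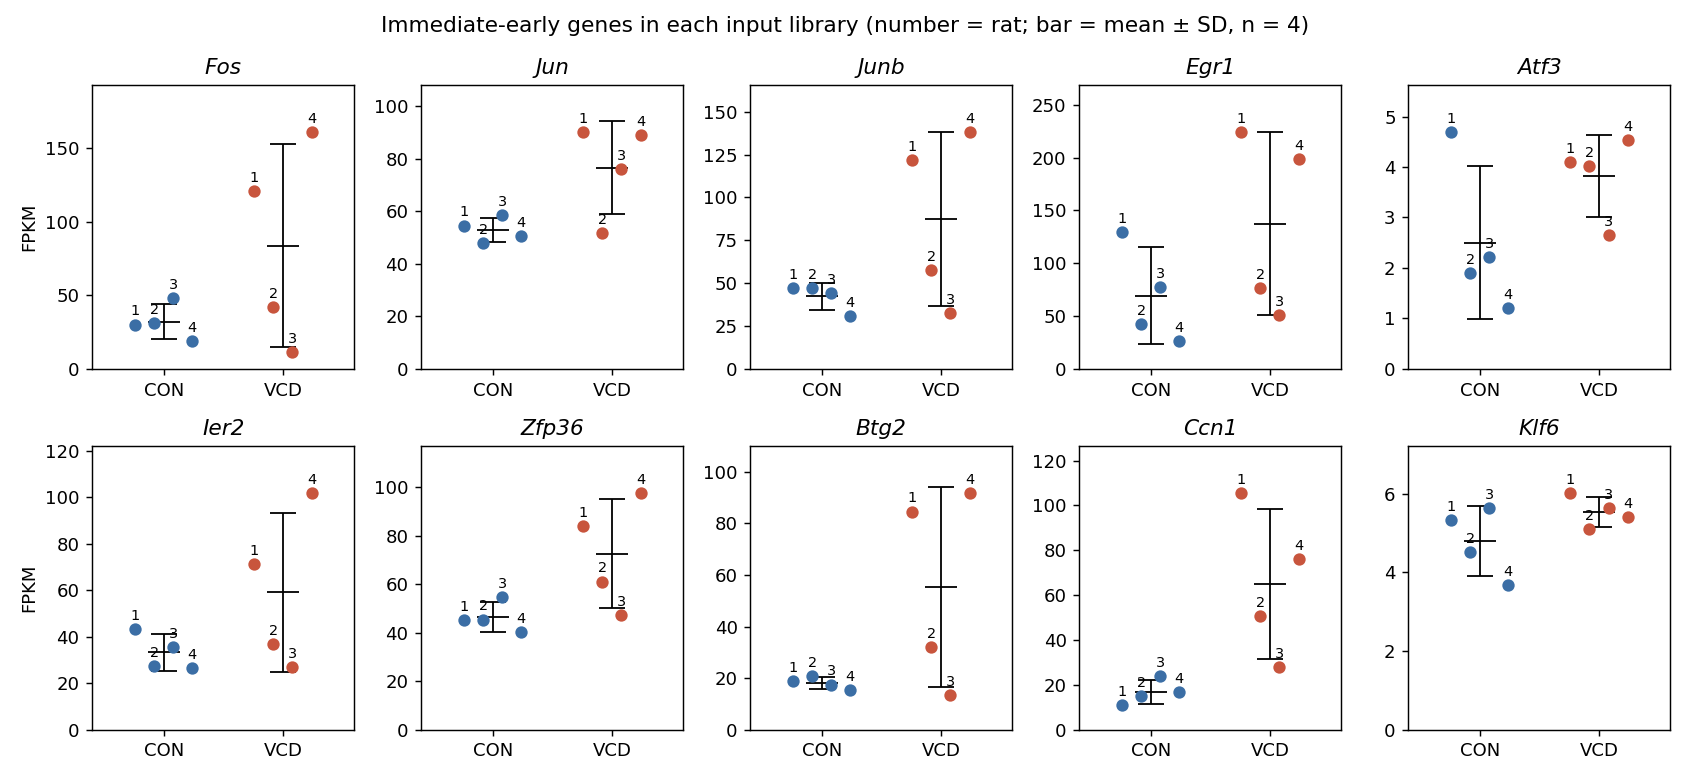
FPKM (linear axis from 0) of the 10 genes in each CON (blue) and VCD (red) input library, numbered by rat, with the mean and SD of 4 libraries per group. VCD 1 and VCD 4 are the highest libraries for 8 of the 10 genes, and the Ccn1 groups alone do not overlap.

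By mean FPKM, which is per length and so can be compared between genes, the CON order ran Egr1 (69.1 ± 45.8), Jun (52.9 ± 4.60), Zfp36 (46.4 ± 6.03), Junb (42.3 ± 7.64), Ier2 (33.3 ± 7.94), Fos (32.1 ± 11.8), Btg2 (18.1 ± 2.30), Ccn1 (16.6 ± 5.29), Klf6 (4.80 ± 0.883) and Atf3 (2.50 ± 1.52), all mean ± SD with n = 4. The libraries of neighbours in this order overlapped, except at the step from Ccn1 down to Klf6. In VCD, Egr1 stayed first at 137 ± 86.4 FPKM, Ccn1 moved from 8th to 6th place at 65.1 ± 33.4, and Klf6 and Atf3 stayed last at 5.54 ± 0.389 and 3.83 ± 0.812. From Egr1 down to Btg2 all neighbours in the VCD order overlapped, while Btg2, Klf6 and Atf3 did not overlap one another.

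All 10 genes had a higher mean in VCD, as had 36.5% of all tested genes on the log2 scale, with a median log2 difference of 0.74 against -0.06 over the 14978 genes tested. With limma 0 of the 10 were called at an adjusted p under 0.05, a threshold that 0.107% of all tested genes passed as higher in VCD and 0.34% as lower. The shares called come from 67 genes. With the batch number added as a block 31 genes were called, 22 of them among the 67. In the authors' deposited table, 3 of the 10 (Ccn1, Jun, Zfp36) had a q under 0.05 and a higher level in VCD. So did 1.75% of all its genes, and 384 of the 14978 tested genes. Groups did not overlap for 1 of 10 (Ccn1), with VCD higher, and for 2.27% of tested genes. The same contrast chose the genes.

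Most of the 10 genes ordered the VCD libraries in a similar way, and the control order was less shared. CON 1 was the highest control for Egr1 and the lowest for Ccn1. VCD 1 and VCD 4 were both above the 6 other libraries for 8 of the 10 genes, Klf6 and Atf3 being the exceptions, and for 8.46% of all tested genes. This count was set up after the values were seen. VCD 3 was the lowest VCD library for 8 genes (all but Jun and Klf6), lay within the CON range for 6 and below it for 2. Taking for each library the median over the 10 genes of its deviation from the CON mean, the log2 values were 0.11, -0.08, 0.18 and -0.29 in CON 1 to 4 and 1.31, 0.42, -0.07 and 1.66 in VCD 1 to 4. VCD 3 thus sat at the control level, VCD 2 slightly above it, and VCD 1 and VCD 4 well above. Among controls, CON 4 was the lowest for 8 of the 10 genes. No share over all genes was taken for the VCD 3 and CON 4 counts, so nothing is read from them.

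**Figure D2:**
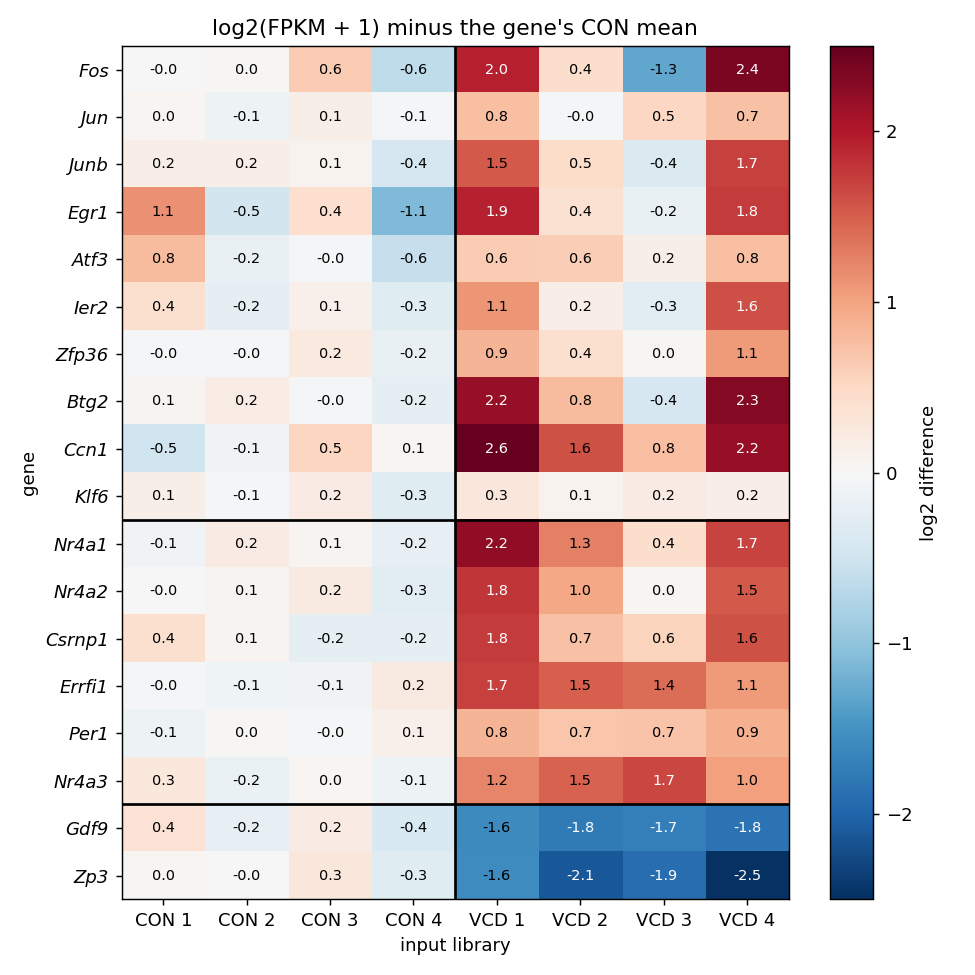
Colour and numbers give log2(FPKM + 1) minus the CON mean of each gene in the 8 input libraries, for the 10 immediate-early genes (top), 6 related early genes (middle) and 2 oocyte genes (bottom). VCD 1 and VCD 4 are red for most early genes. VCD 3 is near 0 or below for Fos, Junb, Egr1, Ier2, Zfp36, Btg2 and Nr4a2, and above every CON library for Jun, Ccn1, Nr4a1, Csrnp1, Errfi1, Per1 and Nr4a3, while Gdf9 and Zp3 are lowered in all 4 VCD libraries.

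On the log2 scale, the VCD spread was larger than the CON spread for 8 of the 10 genes, Atf3 and Klf6 being the exceptions, and for 60.2% of all tested genes. The median ratio of the SDs was 2.60 for the 10 and 1.18 for all tested genes, and the ratio reached 2, a value set after the data were seen, in 6 of 10 and in 20.5% of all. Among 56 other immediate-early genes, described below, the median ratio was 1.40 and 17 reached 2. Among 6 red cell genes it was 2.97 and 4 reached 2. Without VCD 3 the median log2 difference of the 10 was 1.10. Without VCD 4 it was 0.45, without VCD 1 it was 0.50, and without both VCD 1 and VCD 4, a setting added after seeing the data, it was 0.17. In that last setting 8 of 10 genes were still higher in VCD, while Fos turned to -0.43 and Ier2 to -0.05. Ccn1 without both still differed by 1.18, and the 7 other genes by 0.05 (Junb) to 0.38 (Atf3).

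**Figure D3:**
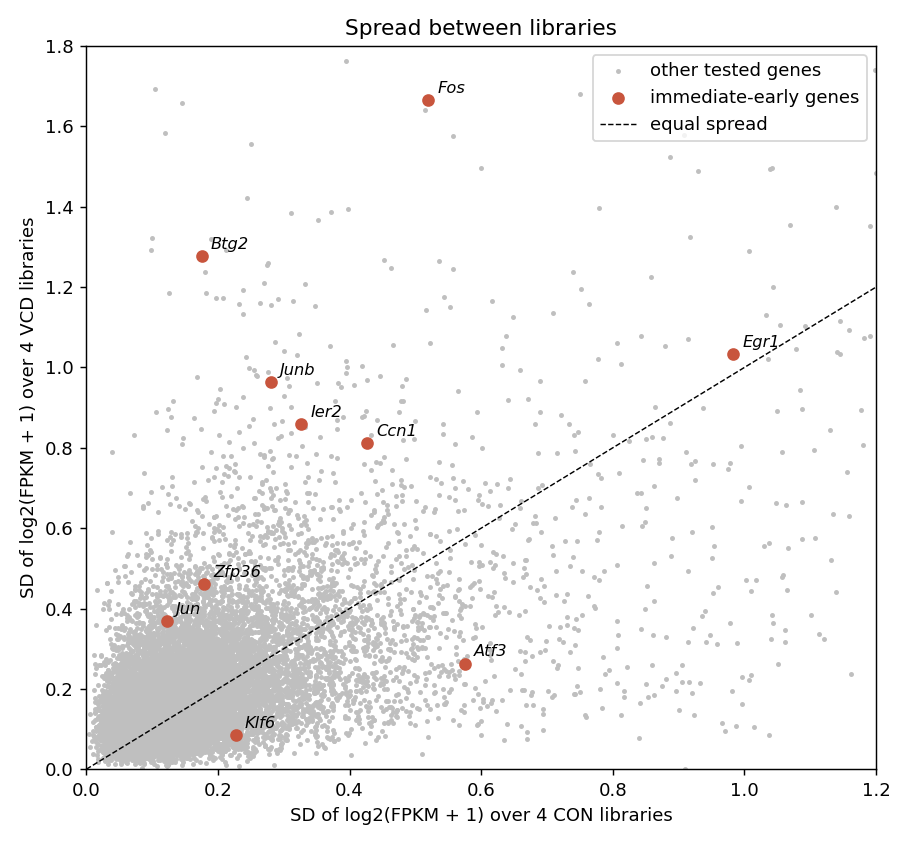
SD of log2(FPKM + 1) over the 4 CON libraries (x) and the 4 VCD libraries (y) for all tested genes (grey; 87 lie outside the axes) and the 10 immediate-early genes (red), with a dashed line of equal spread. Btg2, Fos, Junb, Ier2, Ccn1, Jun and Zfp36 lie far above the line, Egr1 near it, and Atf3 and Klf6 below it.

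Pairing CON and VCD libraries by batch number gave median log2 differences over the 10 genes of 0.83, 0.42, -0.29 and 2.01 for numbers 1 to 4. They were positive for 9, 10, 3 and 10 of the genes, without a share over all genes to set beside these counts. Only Jun and Ccn1 were higher in VCD within all 4 numbers. Number 3 thus ran against the other 3, with Fos lower in VCD 3 than in CON 3 by 1.94 on the log2 scale.

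The other immediate-early genes, a list of 58 compiled with earlier results of these data known, had 57 members in the table and 56 tested. limma called 3 as higher and 0 as lower, beside the 0.107% and 0.34% of all genes, and 20 had an unadjusted p under 0.05 (18.7% of all genes). A q under 0.05 in the authors' deposited table was held by 15, all higher in VCD (6.02% of tested genes in either direction). A higher value in VCD was found for 48, against 36.5% of all genes, groups that did not overlap for 10, against 2.27%, and the median log2 difference was 0.23. The 3 were Errfi1, which binds and inhibits the EGF receptor (1.42 ± 0.14 SE, adjusted p = 0.00493), Per1, a clock gene with glucocorticoid and cyclic AMP control (0.79 ± 0.08 SE, adjusted p = 0.00493), and Nr4a3, an orphan nuclear receptor (1.34 ± 0.16 SE, adjusted p = 0.0126). For each of these 3, all VCD libraries lay above all CON libraries. Nr4a3 was 1.28, 0.697, 0.965 and 0.751 FPKM in CON and 3.47, 4.30, 5.04 and 2.88 FPKM in VCD, with VCD 3 the highest library. Errfi1 was 19.7, 18.7, 19.1 and 23.8 FPKM in CON and 68.1, 59.1, 55.0 and 43.5 FPKM in VCD, and there VCD 4 was the lowest VCD library.

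Across the 8 input libraries, Errfi1, Nr4a3 and Per1 correlated at r = 0.60, 0.53 and 0.69 with the mean z-score of the 10. These are descriptions over 8 libraries that share the group difference. Nr4a1, a relative of Nr4a3 and a known target of luteinizing hormone and stress signals, was 49.6, 60.6, 55.5 and 45.7 FPKM in CON and 249, 128, 71.6 and 171 FPKM in VCD. Its groups did not overlap and its VCD order matched that of Ccn1, but it was not called (1.40 ± 0.32 SE, adjusted p = 0.0838). Csrnp1, a nuclear early-response protein, and Nfkbia, the feedback inhibitor of NF-kappaB, differed by 1.16 ± 0.28 (adjusted p = 0.0964) and 0.49 ± 0.10 (adjusted p = 0.0694) and were not called either. Nr4a3, below a mean of 5 FPKM, was not tested at the stricter filter, and Per1 was not called without VCD 1 and VCD 4 (0.71, limma adjusted p = 0.0597, with 6 libraries). Without VCD 3 the list gave 5 calls, the same 3 with Nr4a1 and Nr4a2, the last named for this call alone.

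Some relatives of the 10 are given, picked outside the rule for named genes and with their values already seen. Their r with the mean z-score of the 10 was 0.85 (Fosb), 0.93 (Egr2) and 0.85 (Jund). Further FOS, ATF, BATF, JDP and EGR genes of the list had an r of 0.90 (Egr3), 0.80 (Fosl1), 0.61 (Fosl2) and 0.61 (Atf4). The lowest were 0.56 (Batf3), 0.16 (Jdp2), -0.11 (Batf) and -0.49 (Batf2). Fosb, a FOS protein, was 1.02, 1.07, 9.16 and 0.651 FPKM in CON and 8.54, 2.87, 1.82 and 20.2 FPKM in VCD, so that CON 3 exceeded VCD 1. Egr2 was 3.65, 0.988, 1.65 and 0.537 FPKM in CON and 5.35, 1.70, 1.32 and 5.41 FPKM in VCD, with the high CON 1 and low CON 4 seen for Egr1. Jund, a JUN protein with steadier expression, ranged from 50.6 to 61.5 FPKM in CON and from 50.2 to 84.9 FPKM in VCD. In the list as a whole, VCD 1 and VCD 4 were above the 6 other libraries in 29 of 56 genes, beside 8.46% of all genes. VCD 3 was the lowest VCD library of 27 genes with a higher VCD mean. That count has no share over all genes beside it, so nothing is read from it. Not every early gene took part: Ccn2, the relative of Ccn1, was lower in value in VCD, at 27.1 to 48.4 FPKM in CON and 17.4 to 31.2 FPKM in VCD (-0.57 ± 0.21 SE) and not called.

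The 10 genes whose pattern over the 8 libraries was most like the mean z-score of the members, among 11850 non-member genes at a mean of at least 1 FPKM, were Ch25h (r = 0.99), Itpkc (0.98), Ttc4 (0.97), Vps37b, Nr5a1, Ccrl2, Thrb, Penk, Fbxl12 and Rgs2 (0.96 each). None was called. All 10 had VCD 1 and VCD 4 as their highest libraries, which their choice by r all but fixed. The score itself was 1.25 in VCD 1 and 1.33 in VCD 4, and at most 0.07 in the other libraries. Nr5a1, the steroidogenic nuclear receptor SF-1, was 78.9, 62.8, 71.4 and 59.9 FPKM in CON and 94.5, 77.8, 62.4 and 95.8 FPKM in VCD. Rgs2, a G-protein signalling regulator, was 31.4, 36.7, 45.1 and 23.1 FPKM in CON and 106, 55.7, 27.4 and 128 FPKM in VCD. Among the 10 immediate-early genes, r with their own mean z-score ran from 0.70 (Klf6) to 0.97 (Zfp36), each gene being part of that mean.

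Lists for handling, hormones, signalling and other cell types were set beside these values. Heat shock genes had 0 of 15 called by limma (3 at an unadjusted p under 0.05, and 2 by the q of the authors' deposited table) and a median log2 difference of -0.00, and their summed FPKM was 4081 to 5074 in CON and 4467 to 5580 in VCD. VCD 1, high for the early genes, had the lowest heat shock sum of the VCD libraries and VCD 3 the highest. The heat-inducible Hspa1b, named after its values were seen, was 129, 59.6, 103 and 22.7 FPKM in CON and 26.8, 53.1, 31.0 and 149 FPKM in VCD. VCD 4 was thus high for Hspa1b and the early genes alike, and VCD 1 only for the latter. In CON, Hspa1b had the library order of Egr1 and Ier2, with CON 1 highest, then CON 3, CON 2 and CON 4. Hypoxia genes had 0 of 15 called (3 unadjusted, 1 by the authors' deposited table) and a median of 0.08, with sums of 808 to 915 FPKM in CON and 852 to 1083 FPKM in VCD. Of 13 glucocorticoid-response genes 2 were called, Errfi1 and Per1, which the early-gene list also holds, beside 0.107% of all genes. At an unadjusted p under 0.05 there were 6 of 13, against 18.7% of all genes, and 6 had a q under 0.05 in the authors' deposited table. The summed FPKM of this list was 1031 to 1361 in CON and 1547 to 1928 in VCD, without overlap. The part of tissue handling, time to freezing or a stress hormone in the early-gene levels was not tested.

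In limma, 0 of 27 upstream signalling genes, 0 of 22 genes of mRNA decay through AU-rich elements, 0 of 17 m6A writers, erasers and readers and 0 of 13 genes of the luteinizing hormone surge were called. At an unadjusted p under 0.05 these lists had 7, 9, 3 and 6 genes, beside 18.7% of all tested, and 2, 1, 1 and 4 genes had a q under 0.05 in the authors' deposited table, beside 6.02% of tested genes. Their smallest p-values included those of Crem, a cyclic AMP response factor (0.57 ± 0.13 SE, adjusted p = 0.0901), Hnrnpd, an AU-rich element binder (-0.48 ± 0.09, adjusted p = 0.0661), and Ptx3, a cumulus matrix protein (-1.19 ± 0.24, adjusted p = 0.0720, and called at 0.0461 without VCD 1). Of the ovary list, 13 tested, Gdf9, Zp3 and Amh were lower and none higher. Amh, a granulosa hormone of small growing follicles, fell by 2.19 ± 0.32 (SE; adjusted p = 0.0297), though 7 of the alternatives, among them leaving out CON 1, 2 or 3 or VCD 2 or 4, put its limma adjusted p between 0.0596 and 0.110. Amh was 74.6, 52.6, 62.5 and 48.3 FPKM in CON and 24.0, 8.02, 7.67 and 14.1 FPKM in VCD, with VCD 1 and VCD 4 the higher VCD libraries. Without VCD 1 and VCD 4 Gdf9 kept its difference (-1.74) but was not called (limma adjusted p = 0.0563, with 6 libraries). In this list VCD 1 and VCD 4 were above the 6 other libraries for 4 of 13 genes, and the list sum ran otherwise, at 4613, 5100, 4740 and 4337 FPKM in VCD 1 to 4. Of the 4, a pair of steroid enzymes was named after their values were seen. Cyp19a1, the aromatase of granulosa cells, was 9.57, 10.5, 24.3 and 56.3 FPKM in CON and 124, 58.6, 24.8 and 108 FPKM in VCD. Cyp17a1, the theca cell enzyme of androgen synthesis, was 25.1, 10.8, 25.6 and 26.0 FPKM in CON and 83.2, 5.15, 14.4 and 94.5 FPKM in VCD. VCD 1 and VCD 4 were the highest libraries for both. Whether follicle stage or cycle day had a part in the early-gene levels was not tested.

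Red cell genes summed to 1107, 994, 774 and 812 FPKM in CON and 1748, 811, 329 and 984 FPKM in VCD, so that VCD 1 held the most and VCD 3 the least, while limma called 0 of 6 (0 unadjusted, 0 by the authors' deposited table). Endothelial genes, 11 of 11 higher in value and 0 called (7 unadjusted, 5 by the authors' deposited table; all genes 36.5%, 18.7% and 6.02% in turn for higher value, unadjusted p and authors' q), summed to 237 to 286 FPKM in CON and 287 to 361 FPKM in VCD, with VCD 3 the lowest VCD library. Smooth muscle genes (0 of 10 called, 0 unadjusted) summed to 534 to 732 FPKM in CON and 651 to 1008 FPKM in VCD, and leukocyte genes (0 of 17, 3 unadjusted) to 687 to 1045 and 646 to 861 FPKM. Oviduct genes (0 of 6, 1 unadjusted) summed to 5.41 to 63.0 FPKM in CON and 4.91 to 12.3 FPKM in VCD. Adipocyte genes, 1 of 6 called (Cfd, 0.38 ± 0.06 SE, adjusted p = 0.0429, and not called when any 1 library was left out), summed to 72.0 to 309 FPKM and 65.5 to 107 FPKM, and housekeeping genes (0 of 10, 0 unadjusted) to 4524 to 4705 and 4374 to 5094 FPKM. By the q of the authors' deposited table, the smooth muscle, leukocyte, oviduct and housekeeping lists had 0, 1, 0 and 0 genes. Higher in value in VCD were 10 of 10 smooth muscle, 4 of 17 leukocyte and 0 of 6 oviduct genes. So were 2 of 6 adipocyte, 6 of 10 housekeeping and 3 of 6 red cell genes, beside 36.5% of all tested genes. Genes typed as ribosomal RNA summed to 8.17 to 25.0 FPKM in CON and 28.6 to 56.9 FPKM in VCD, highest in VCD 2. Within VCD the smooth muscle and endothelial sums had the order of the summed early genes, VCD 4 above VCD 1, VCD 2 and VCD 3, and in the red cell sum VCD 1 was above VCD 4, VCD 2 and VCD 3. The endothelial sums of VCD 4 and VCD 1 were close, at 361 and 359 FPKM. Gene by gene, VCD 1 and VCD 4 were above the 6 other libraries for 4 of 11 endothelial, 1 of 10 smooth muscle and 0 of 6 red cell genes. The share over all tested genes was 8.46%. The part of these cell types in the early-gene levels was not tested.

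**Figure D4:**
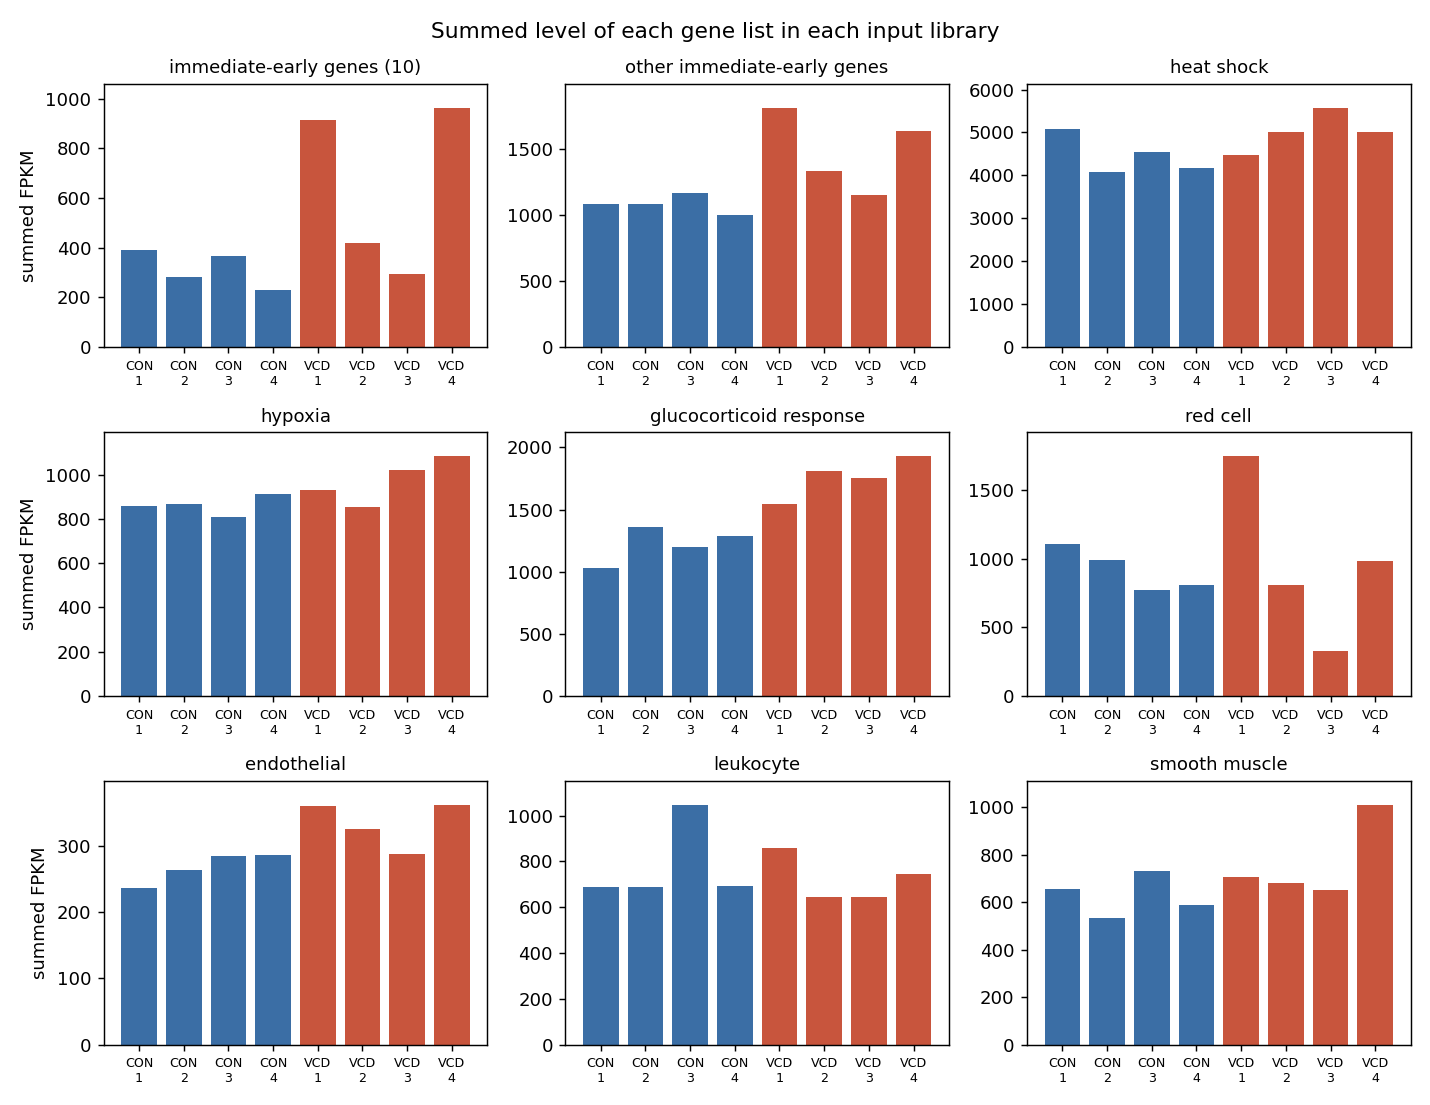
Summed FPKM (bars from 0, 1 per input library; CON blue, VCD red) of the 10 immediate-early genes, the other immediate-early genes and 7 comparison lists. The sum of the 10 reaches 912 and 964 in VCD 1 and VCD 4 and 231 to 417 in the 6 other libraries.

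The m6A peaks were not used to choose the genes. The authors called peaks on pooled libraries of each group, so peak values carry no replicate error here, and a peak's log2 enrichment is the authors' value of IP over input. All 10 genes had a peak in both the CON and the VCD list, as had 76.5% of tested genes and 80.7% of genes at least as highly expressed as the lowest member. There were 14 peaks on the 10 genes in CON and 15 in VCD, and each gene had peaks of both groups that overlap. In each group 8 of them were annotated at the stop codon, the usual place of m6A, a class that held 32.4% of all CON peaks and 32.9% of all VCD peaks. Several of these peaks covered nearly the whole gene, so the annotation does not place the mark within it. In CON the Jun peak spanned 3089 of 3089 bases and the Junb peak 1775 of 1783.

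The strongest peak per gene had a log2 enrichment of 3.99 in CON and 3.89 in VCD for Fos, 4.45 and 4.75 for Jun, 4.28 and 4.22 for Junb, and 4.27 and 4.30 for Atf3. It was 4.28 and 4.31 for Egr1 and 3.43 and 3.55 for Klf6, then 3.98 and 3.96 for Ier2. For Zfp36 it was 4.33 and 4.36, for Btg2 3.38 and 3.37 and for Ccn1 2.60 and 2.63. The medians, 4.13 in CON and 4.09 in VCD, lay above those of all genes with a peak, 2.85 and 2.94. Ccn1, with the largest RNA difference, had the weakest peak of the 10 and the only one below the median of all genes. From CON to VCD the strongest peak moved by a median of 0.02 over the 10 and by 0.08 over the 12384 genes with peaks in both lists, and none of the 10 moved by more than the 0.29 of Jun. For Jun and Fos these shifts compare unlike intervals, because the caller split their peaks in VCD. Over the full Jun interval the authors' log2 difference was 0.08.

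**Figure D5:**
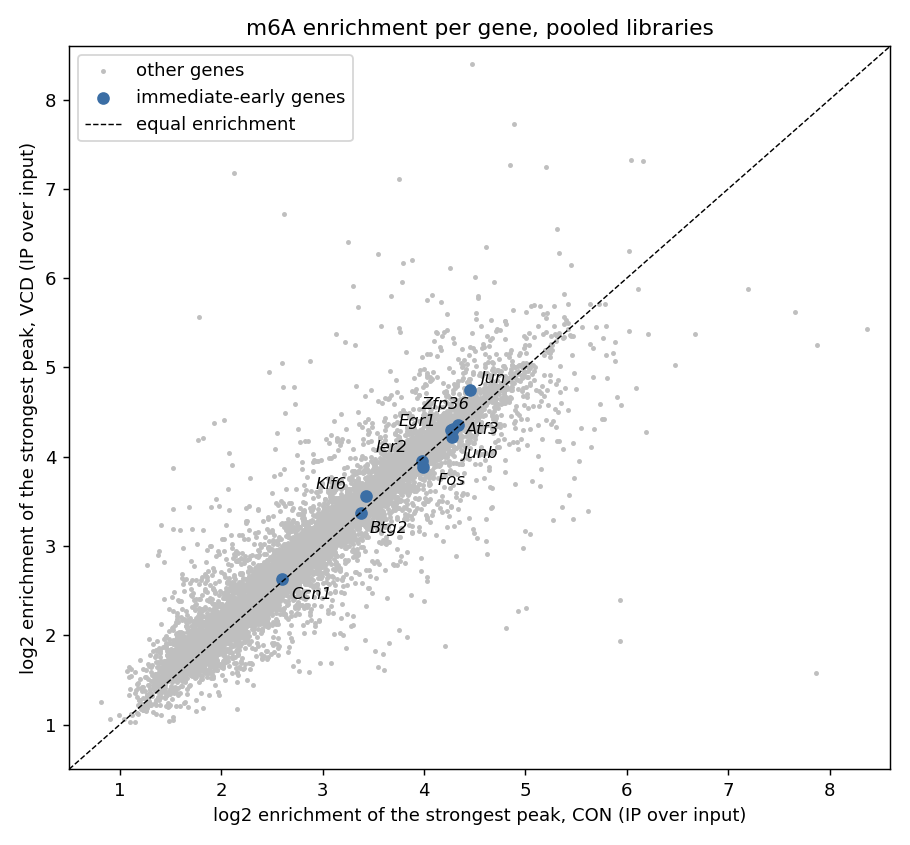
The authors' log2 enrichment (IP over input, pooled libraries) of the strongest peak of each gene in CON (x) and VCD (y), for all genes with peaks in both lists (grey) and the 10 immediate-early genes (blue), with a dashed line of equal enrichment. The 10 lie on or near the line, 9 of them above the median of all genes.

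In place, the Fos peak in CON ran over nearly the whole gene (chromosome 6, 109300483 to 109303299, + strand). In VCD the caller split it into a start-codon peak (109300483 to 109301517; log2 enrichment 1.92) and a stop-codon peak (109301568 to 109303299; 3.89). Jun likewise had 1 peak in CON (chromosome 5, 114011189 to 114014277, - strand) and 2 in VCD. Egr1 carried a stop-codon peak from 27657628 to 27660774 of chromosome 18 (+ strand) in CON and a weak one in the 3′ UTR with a log2 enrichment of 1.33 in CON and 1.41 in VCD. A start-codon peak of Ccn1 (chromosome 2, 251531559 to 251532303, - strand; 2.00) was listed for CON alone. Coordinates are those of the deposited files, of unnamed build, which differs from that of the promoters above. Peak lengths are counted on the genome. Where a peak spans introns, as for Atf3 and Klf6, its length is not that of the marked RNA.

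The authors' deposited table of differential peaks, in which every peak has a p-value under 0.05, held a peak of 4 of the 10 genes. In that table the log2 difference of VCD from CON was 0.08 for Jun, 0.07 for Egr1 and 0.16 for Ier2, and -0.15 for Fos. Of these 4 peaks in the authors' deposited table, 0 were marked as significant, which asks for an absolute log2 difference of at least 1, against 7.79% of its peaks. With the adjusted p of the authors' deposited table alone, 3 of the 4 (Fos, Jun, Egr1) were under 0.05, as were 49.8% of its peaks. The median difference over the authors' deposited table was 0.19, and 82.8% of its peaks were higher in VCD. It also held 24 peaks of 19 other immediate-early genes, 20 of them higher in VCD and 1 marked. That peak, at the start codon of Zfp36l2, a relative of Zfp36, had a log2 enrichment of 3.63 in CON and 1.43 in VCD in the authors' deposited table, and was named after its value was seen.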

How the data were processed

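Input libraries of 4 CON and 4 VCD rat ovaries were analysed. The members and all lists were chosen with earlier results of these data known. Per the file headers, the authors made the FPKM per gene, a fold ratio of group means, its log2 value, and p-values and q-values of a test that the sources used here do not describe. Peak lists hold the authors' log2 enrichment of IP over input on pooled libraries, per the file headers, and the deposited table of differential peaks adds log2 differences and p-values. Peak starts in the files count from 0 and are printed from 1. Tools in the submitters' processing notes, named without a role, are HOMER 4.10, edgeR 4.1, StringTie 2.1.2, HISAT2 2.0.4 and fastp 0.19.4. The notes also name the build GRCh38, although the files hold rat identifiers. The sources used here name neither the peak caller nor the build of the coordinates. Per-library values of the IP samples were not used here. Depth is unknown and FPKM gives no counting error.

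The 14978 of 22663 genes whose mean over the input libraries reached 0.5 FPKM were fitted in R 4.3.3 with limma 3.58.1 (eBayes, trend on) on log2(FPKM + 1), treatment being the only term, and called at a Benjamini-Hochberg adjusted p under 0.05. Folds on this scale understate the change of low genes. The fit was tested on simulated data. Tables and motif searches used Python 3.11.15 and pandas 2.3.3. Promoter sequences are RefSeq's, build GRCr8, with 250 bases before each start. Named were the 10 members, every called gene and the 6 smallest p of the other early genes, every called gene and the 2 smallest p of each other list, and the 10 genes most like the members. Genes outside this rule are marked as such in the text.

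The batch label pairs CON and VCD by number. After removing group means, CON and VCD libraries of 1 number correlated over genes at -0.01, -0.09, 0.01 and -0.07, and libraries of different numbers at -0.22 to 0.27. The number was a block in 1 alternative. Other alternatives were a pseudocount of 0.1, no filter, a mean of at least 5 FPKM, quantile normalization, a common median, each library left out, and VCD 1 and VCD 4 left out together (added after seeing the data).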

Additional observations from a re-analysis of the deposited data

Results flagged for a closer look

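In 110 groups of 4 libraries checked for a library far from the others (named genes by group), 3 had a gap above Dixon's 95% critical value, and chance flags about 1 in 20. Tagln, a smooth muscle gene, was 419 FPKM in VCD 4 and 273 to 288 in the other VCD libraries. Runx2, a factor induced by the luteinizing hormone surge, was 34.3 FPKM in CON 4 and 32.9 to 33.0 in the other controls, a small difference. Ythdf3, an m6A reader, was 15.5 FPKM in CON 3 and 12.4 to 12.7 in the other controls. None of the 10 immediate-early genes was singled out in this way in either group.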

How the results depend on the processing

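The median log2 difference of the 10 genes (0.74) lay between 0.74 and 0.84 under the other pseudocount, filters and normalizations, and between 0.45 and 1.10 when 1 library was left out. At a mean of at least 5 FPKM Atf3 dropped out and 9 genes were left. The median ratio of VCD to CON spread (2.60) lay between 1.92 and 2.97 with 1 library left out. Of the 10 genes 0 to 1 were called with 1 library left out, the 1 being Ccn1 without VCD 3, a call on values that chose the gene, and of the other early genes 3 to 5. With the replicate block none of the 10 was called, the other early genes gave Errfi1, Nr4a3, Per1 and also Rcan1, and the median difference stayed at 0.74. The number of called genes over the whole table was 67, and became 31 with the replicate block, 3 at a mean of at least 5 FPKM, 13 without VCD 1 and VCD 4, and 12 to 115 with 1 library left out. In the other lists together 6 genes were called, 2 at a mean of at least 5 FPKM, 3 without VCD 1 and VCD 4, and 4 to 6 with 1 library left out. The causes were not tested. Only 4 animals a group, unknown depth and pooled peak calls limit all of these values.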
